A study of Mus musculus with 222 samples.

Results

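The cells described here are mouse primordial germ cells (PGCs) from XX embryos at day E12.5 of gestation that carry a PGC-directed deletion of Eed (ECKO), divided by their level of Sycp3. Of 48 XX ECKO cells sequenced, 26 had at least 50000 counts and at least 1500 genes with a count, out of 127 cells so kept among the 192 single cells of the series. A cell was called Sycp3-positive at a Sycp3 level of 10 CPM (its counts scaled to a cell total of 1e6) or more and Sycp3-negative below it, which gave 15 Sycp3-positive and 11 Sycp3-negative cells. They came from 2 embryos, named E277.3 and E298.4 in the column headers: 7 Sycp3-positive and 6 Sycp3-negative cells from E277.3, and 8 Sycp3-positive and 5 Sycp3-negative cells from E298.4. The ECKO embryos carry conditional (fl) alleles of Eed, a Blimp1-Cre driver (BC) and the Oct4-GFP reporter (OG). Cre activity thus depends on the Blimp1 promoter, and which alleles were deleted in a given cell is not given in the sources used here. The XX Control cells kept came from 2 other embryos, E277.5 (14 cells) and E301.1 (16 cells), that the labels call wild type and whose cells carry the same reporter. All embryos were on a mixed C57BL/6;129S1/SvlmJ background. E12.5 gonads were dissociated with trypsin, GFP-positive cells were sorted singly into plates, and each cell became its own library by the Smart-seq2 method, which copies poly(A) RNA along its whole length. Cells of 1 embryo are not replicates of a condition, so tests below take the embryo as the replicate.

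Germ cells of an XX gonad leave the mitotic cycle and enter meiosis after sexual differentiation of the gonad begins, in response to retinoic acid and bone morphogenetic protein signals. Stra8, a retinoic acid-induced gene, acts at the start of this programme, and Sycp3 encodes a lateral element protein of the synaptonemal complex, the structure that holds paired homologous chromosomes together. The deleted gene, Eed, encodes a protein that Polycomb repressive complex 2 (PRC2) needs to place its repressive methyl mark on histone H3.

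The promoters are shown of the gene that split the cells and of Stra8, which was read in nearly all cells of both classes. Both sequences are from RefSeq, build GRCm38.p6, and run 5′ to 3′ on the gene's strand from 250 bases before to 50 bases after its start, at chr10:88459337-88459636 (plus strand) for Sycp3 and chr6:34920698-34920997 (plus strand) for Stra8. Capitals mark letters that match 4 motifs searched on both strands: the E-box CACGTG, the E2F6 motif TTCCCGC, the retinoic acid receptor motif AGGTCA and CNCCTCAG.
Sycp3: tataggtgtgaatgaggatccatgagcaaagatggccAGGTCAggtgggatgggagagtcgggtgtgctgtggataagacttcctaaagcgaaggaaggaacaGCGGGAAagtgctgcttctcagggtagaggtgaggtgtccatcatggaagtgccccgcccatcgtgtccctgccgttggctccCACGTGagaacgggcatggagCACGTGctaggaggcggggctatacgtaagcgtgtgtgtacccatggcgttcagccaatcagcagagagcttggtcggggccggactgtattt
Stra8: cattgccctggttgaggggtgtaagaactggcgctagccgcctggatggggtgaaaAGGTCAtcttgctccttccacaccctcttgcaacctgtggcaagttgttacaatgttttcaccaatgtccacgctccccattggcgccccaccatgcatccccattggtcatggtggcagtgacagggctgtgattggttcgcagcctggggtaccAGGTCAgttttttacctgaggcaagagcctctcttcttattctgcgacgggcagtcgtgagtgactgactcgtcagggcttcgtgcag
The Sycp3 window held 2 E-boxes, at 64 to 59 and 43 to 38 bases before the start, 1 E2F6 motif on the opposite strand and 1 AGGTCA. The Stra8 window held 2 AGGTCA matches, at 194 to 189 and 38 to 33 bases before the start, and no other motif of the 4. No 2 of these matches overlap. Of 32851 promoters of the same length, 7.15% hold CACGTG, 4.6% TTCCCGC, 16.3% AGGTCA and 7.94% CNCCTCAG. The Sycp3 window has 15 CpG sites and the Stra8 window 10, against a median of 7 over all promoters. A match is a stretch of letters and no measure of binding.

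The 2 Sycp3-negative groups were unlike in make-up, which touches every comparison that follows. In E277.3 the Sycp3-positive cells held 407526 to 3571435 counts and 7230 to 9242 genes, and the Sycp3-negative cells 795849 to 2637213 counts and 2667 to 8349 genes. In E298.4 the Sycp3-positive cells held 70194 to 2772236 counts and 3743 to 9043 genes, and the Sycp3-negative cells 95027 to 1885863 counts and 3449 to 9143 genes. Of those 5 Sycp3-negative E298.4 cells, 2 (cells 3 and 19, with 95027 and 141607 counts) were too shallow for a count of 0 to exclude 10 CPM, since 3 counts of their totals make 31.6 and 21.2 CPM. Cell 14 of E298.4, with 1885863 counts, supplied 43.05% of all counts of its group and stood apart in identity. Its interstitial markers summed to 2074 CPM, against 158.8 CPM or less in every other ECKO cell, and its supporting cell markers summed to 871 CPM, against at most 122.5 CPM. Germ cell markers in it summed to 168 CPM, the lowest of the 26 cells. Pdgfra, a growth factor receptor of interstitial cells, was at 1388 CPM in cell 14, and Nr5a1, a steroidogenic and gonadal transcription factor, at 204.7 CPM and at 0 in every other ECKO cell. Xist, the RNA that coats an inactive X chromosome, was at 440 CPM in it and at 4.22 CPM or less elsewhere. Of the interstitial list, the genes Col1a1, Tcf21, Dcn, Lum, Mgp and Postn had no count in cell 14's group. In E277.3, cell 8 (Sycp3-negative) held only 2667 genes at 795849 counts, with Pou5f1 and Ddx4 at 0. An XX ECKO cell numbered 24 is labelled ECKO in its title but wild type in its genotype field. Its label gives no embryo code. It is thus either cell 24 of E277.3 (Sycp3-positive) or cell 24 of E298.4, which was not kept. Cell 24 of E277.3 had Stra8 at 542.6 CPM and Dazl at 0.28 CPM. Class differences are therefore given with all cells and, where they move, without cells 8 and 14. The part of these cells in any class difference can be read from those values. Comparisons with Control are given with all cells unless stated otherwise. Blood markers summed to at most 19 CPM and endothelial markers to at most 145 CPM in the 26 cells, with hemoglobin genes and Cdh5 at 0.

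**Figure D1:**
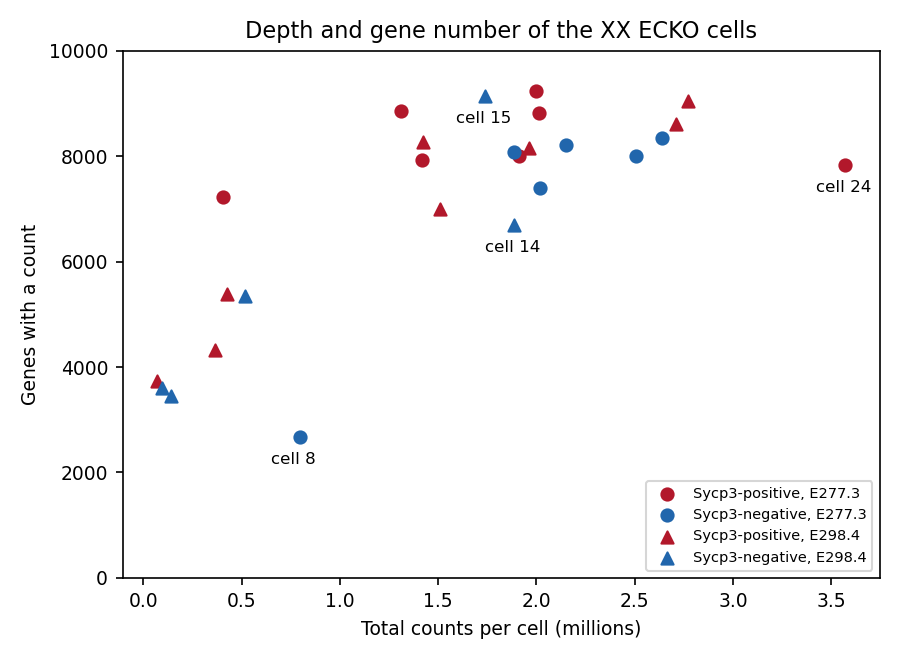
Total counts (horizontal axis, in units of 1e6 counts) and genes with at least 1 count (vertical axis) of each XX ECKO cell, with Sycp3-positive cells in red, Sycp3-negative cells in blue, circles for embryo E277.3 and triangles for E298.4. Cell 8 lies alone at 2667 genes, and 3 of the 5 Sycp3-negative E298.4 cells have fewer than 6000 genes.

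Sycp3 itself chose the classes, so its levels are a description. In E277.3 it lay at 10.6, 29.5 and 132.5 CPM (lowest, median and highest) in the 7 Sycp3-positive cells and at 1.98, 4.54 and 6.39 CPM in the 6 Sycp3-negative cells, none of which was at 0. In E298.4 it lay at 12.8, 21 and 356.2 CPM in the 8 Sycp3-positive cells, and the 5 Sycp3-negative cells had 0, 0, 0, 0 and 9.78 CPM. The values nearest the threshold were therefore 10.6 and 12.8 CPM just inside and 6.39 and 9.78 CPM just outside. The highest value, 356.2 CPM, was in the shallowest cell, with 70194 counts. XX Control cells had a median of 4.03 CPM in E277.5, where 2 of 14 cells reached 10 CPM with a highest of 14.9, and a median of 0.728 CPM in E301.1, where none of 16 did. The Sycp3-negative cells of E277.3 thus lay inside the range of the Control cells of E277.5.

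Stra8 was read in nearly all ECKO cells of both classes. In E277.3 it was at 10 CPM or more in 7 of 7 Sycp3-positive cells (106, 330 and 543 CPM as lowest, median and highest) and in 6 of 6 Sycp3-negative cells (77.7, 233 and 520 CPM). In E298.4 it was so in 7 of 8 Sycp3-positive cells (0, 146 and 518 CPM), and the 5 Sycp3-negative cells had 18, 223, 294, 544 and 600 CPM. The value of 0 was that of cell 4, with 70194 counts. A count of 0 cannot exclude 10 CPM in it, since 3 counts make 42.7 CPM there. The ranges of the classes overlapped in both embryos, and the lowest Sycp3-negative value, 18 CPM, was that of cell 14. Of the XX Control cells, 1 of 14 in E277.5 reached 10 CPM, at 49.95 CPM, and 0 of 16 in E301.1 did, with a highest of 0.488 CPM. Exact Clopper-Pearson 95% intervals on the ECKO shares are wide, from 54.1 to 100% for the 6 Sycp3-negative cells of E277.3 and from 47.4 to 99.7% for the 8 Sycp3-positive cells of E298.4. They cover the sampling of cells within an embryo only. With each cell thinned to 50000 counts, Stra8 had a count in 7 of 7 Sycp3-positive and 6 of 6 Sycp3-negative cells of E277.3, in 6 of 8 and 5 of 5 of E298.4, and in 0 of 14 and 0 of 16 Control cells. The fitted class difference of Stra8 was 0.14 on the log2 scale (SE 0.52, p = 0.792, adjusted p = 1, edgeR quasi-likelihood test on sums per embryo), and it was -0.17 without cells 8 and 14. Across the 13 cells of each embryo, Spearman's rho of Stra8 with Sycp3 was 0.445 in E277.3 and -0.273 in E298.4, given as a description over cells of 1 embryo that differ in depth. The shallow cell 4 enters the rho of E298.4 with the highest Sycp3 and the lowest Stra8 of its embryo.

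**Figure D2:**
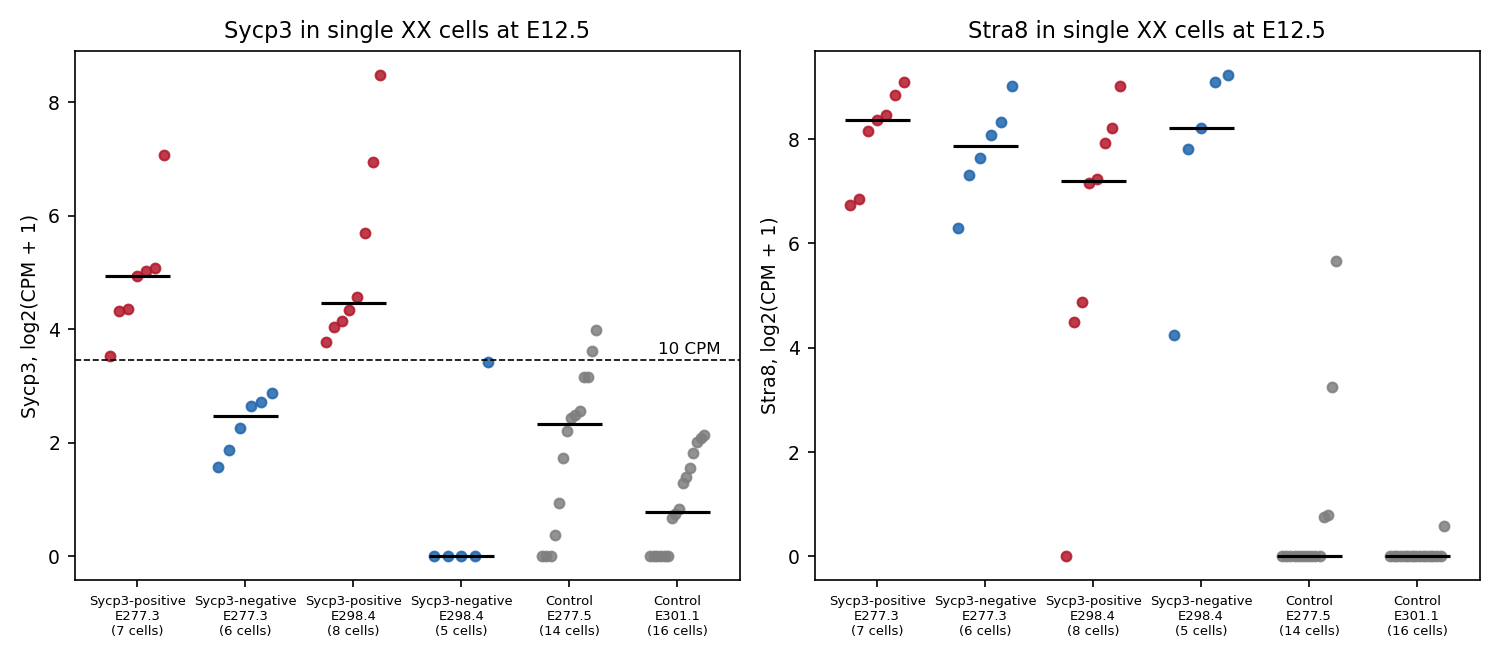
Sycp3 (left) and Stra8 (right) in each kept XX cell on the vertical axes as log2(CPM + 1), by class and embryo with Sycp3-positive and Sycp3-negative ECKO cells left of Control cells; bars are medians and the dashed line is the 10 CPM threshold. Sycp3 divides by construction, whereas Stra8 medians of 330 and 233 CPM in E277.3 and 146 and 294 CPM in E298.4 lie side by side, above Control medians of 0.

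Across all genes, Sycp3-positive and Sycp3-negative cells did not differ at an adjusted p under 0.05 for any gene, and the embryos gave unlike class differences. Counts were summed per embryo and class, and 11806 genes were tested with the embryo as a block, Sycp3 itself left out. None passed in either direction (0%, edgeR quasi-likelihood test with Benjamini-Hochberg adjustment), with a smallest adjusted p of 0.395. At an unadjusted p under 0.05, 71 genes were higher (0.601%) and 124 lower (1.05%) in Sycp3-positive cells, while DESeq2 on the same sums called 32 higher (0.271%) and 62 lower (0.525%) at an adjusted p under 0.05. The log2 difference between the classes, on log2(CPM + 2), had a Pearson correlation of -0.0545 between the embryos over the 11806 genes, which are not independent replicates. Genes higher in Sycp3-positive cells of both embryos made up 26.4% and genes lower in both 20%. The median absolute difference was 0.61 in E277.3 and 1.07 in E298.4, where the sums rested on fewer counts. Leaving out cell 14, cells 8 and 14, or all cells with fewer than 6000 genes gave correlations of -0.043, -0.045 and -0.0614.

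**Figure D3:**
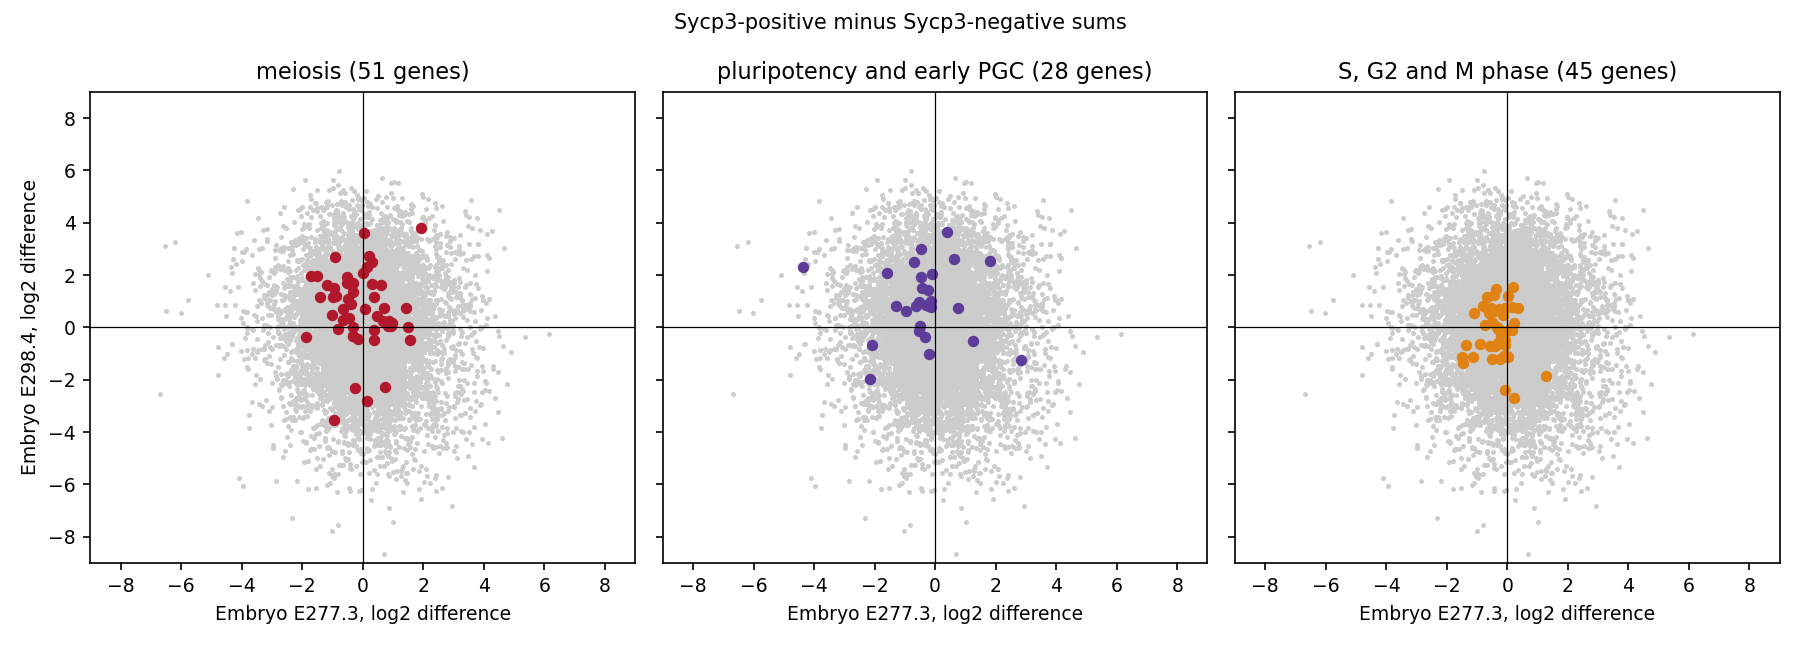
Log2 difference, Sycp3-positive minus Sycp3-negative sums on log2(CPM + 2), in embryo E277.3 (horizontal axis) and E298.4 (vertical axis); grey points are the 11806 genes tested and coloured points the 51 meiosis, 28 pluripotency and 45 cell cycle genes tested. Pluripotency genes lie mainly in the upper left quadrant, with medians of -0.38 in E277.3 and 0.84 in E298.4, and 20 of 45 cell cycle genes lie below 0 in both embryos (44.4%, beside 20% of all genes).

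Meiotic genes as a group did not separate the classes in the same way in both embryos. Of 59 genes on 4 meiosis lists, 58 matched a symbol and 51 were tested. None passed the adjusted test, and 1 was higher and 1 lower at an unadjusted p under 0.05. Their median log2 difference was -0.27 in E277.3 and 0.73 in E298.4, against 0.03 and 0.13 over all genes tested, and 18 were higher in both embryos, 7 lower in both and 26 of opposite sign. Without cells 8 and 14 the medians were -0.04 and 0.48, with 11 higher in both and 8 lower in both. The share of meiosis genes higher in both embryos was 35.3%, beside the 26.4% of all genes. Without cells 8 and 14 it was 21.6%, beside 28.6% of all genes.

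Among genes of meiotic entry, the homeobox genes Msx1 and Msx2, which relay bone morphogenetic protein signals, took different courses. Msx1 lay at 43, 223 and 763 CPM (lowest, median, highest) in Sycp3-positive and at 0, 238 and 1057 CPM in Sycp3-negative cells of E277.3. In E298.4 it lay at 0, 3.21 and 19.9 CPM in Sycp3-positive cells and at 0, 42.1 and 176 CPM as lowest, median and highest in Sycp3-negative cells, and its fitted difference of -2.36 (SE 0.86, p = 0.0325, adjusted p = 1, edgeR) was the lower one of the meiosis lists. Msx2 was at a median of 242 CPM in Sycp3-positive and 290 CPM in Sycp3-negative cells of E277.3, and at 142 CPM and 38.7 CPM in E298.4. The 38.7 CPM is the value of cell 14. Gata2, a transcription factor gene of the same pathway, differed little in E277.3, with medians of 101 and 96.8 CPM in the positive and negative class. In E298.4 it was at 10 CPM or more in 7 of 8 Sycp3-positive and 2 of 5 Sycp3-negative cells. These include the shallow cells 4 (Sycp3-positive, 14.25 CPM) and 3 (Sycp3-negative, 10.52 CPM), where 3 counts make 42.7 and 31.6 CPM.

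Meiosis-specific cohesin genes were read in both classes. Rec8, the meiotic kleisin subunit, was at 10 CPM or more in 6 of 7 Sycp3-positive and 4 of 6 Sycp3-negative cells of E277.3 (medians 32.5 and 26.5 CPM). In E298.4 it was so in 5 of 8 Sycp3-positive and 1 of 5 Sycp3-negative cells, the 1 being cell 15, which at 9.78 CPM of Sycp3 lay just under the threshold. Smc1b, the meiotic SMC subunit, had medians of 43.8 and 23.9 CPM in the Sycp3-positive and Sycp3-negative cells of E277.3. Its medians in E298.4 were 38.8 CPM in Sycp3-positive and 0 CPM in Sycp3-negative cells. Stag3, another meiotic cohesin subunit, showed how 1 cell can carry a sum: cell 8 held 2036 CPM, 74.9% of the Stag3 counts of the Sycp3-negative E277.3 cells, whose next highest value was 87 CPM. None of these genes passed the test, with unadjusted p of 0.511 for Rec8, 0.202 for Smc1b and 0.963 for Stag3 (edgeR, adjusted p = 1 for each).

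Synaptonemal complex and axis genes other than Sycp3 were read in both classes, and none passed the adjusted test. Of 9 tested, 5 were higher in Sycp3-positive cells of both embryos (55.6%, beside 26.4% of all genes), 0 were lower in both, and the medians were 0.36 in E277.3 and 0.73 in E298.4. Without cells 8 and 14, 4 of the 9 were higher (44.4%, beside 28.6% of all genes) and 1 lower in both embryos, with medians of 0.32 and 0.63. Syce2, a central element gene, was at 10 CPM or more in 7 of 7 Sycp3-positive and 5 of 6 Sycp3-negative cells of E277.3 (medians 167 and 201 CPM). In E298.4 it was so in 8 of 8 Sycp3-positive and 5 of 5 Sycp3-negative cells (medians 298.2 and 318 CPM). Sycp1, the transverse filament gene, was lower in level: 4 of 7 Sycp3-positive and 2 of 6 Sycp3-negative cells of E277.3 and 4 of 8 and 2 of 5 of E298.4 reached 10 CPM. Syce3, a further central element gene, had no count in any of the 11 Sycp3-negative cells and reached 10 CPM in 3 of 7 and 3 of 8 Sycp3-positive cells, with a highest of 16.9 CPM in E277.3 and 142 CPM in E298.4. It was the higher gene of the meiosis lists (p = 0.0389, adjusted p = 1, edgeR), and 1 cell held 82% of its counts in the Sycp3-positive E298.4 cells. No fold is given for it, because its level in the Sycp3-negative class is 0. Of the 27 recombination genes tested, 7 were higher (25.9%) and 4 lower (14.8%) in Sycp3-positive cells of both embryos, beside 26.4% and 20% of all genes. Psmc3ip, a partner of the strand-exchange proteins, had medians of 142 and 91.6 CPM in Sycp3-positive and Sycp3-negative cells of E277.3, and of 79.2 and 10.52 CPM in E298.4. The 10.52 CPM is the value of the shallow cell 3, below the 31.6 CPM that 3 counts make in it.

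**Figure D4:**
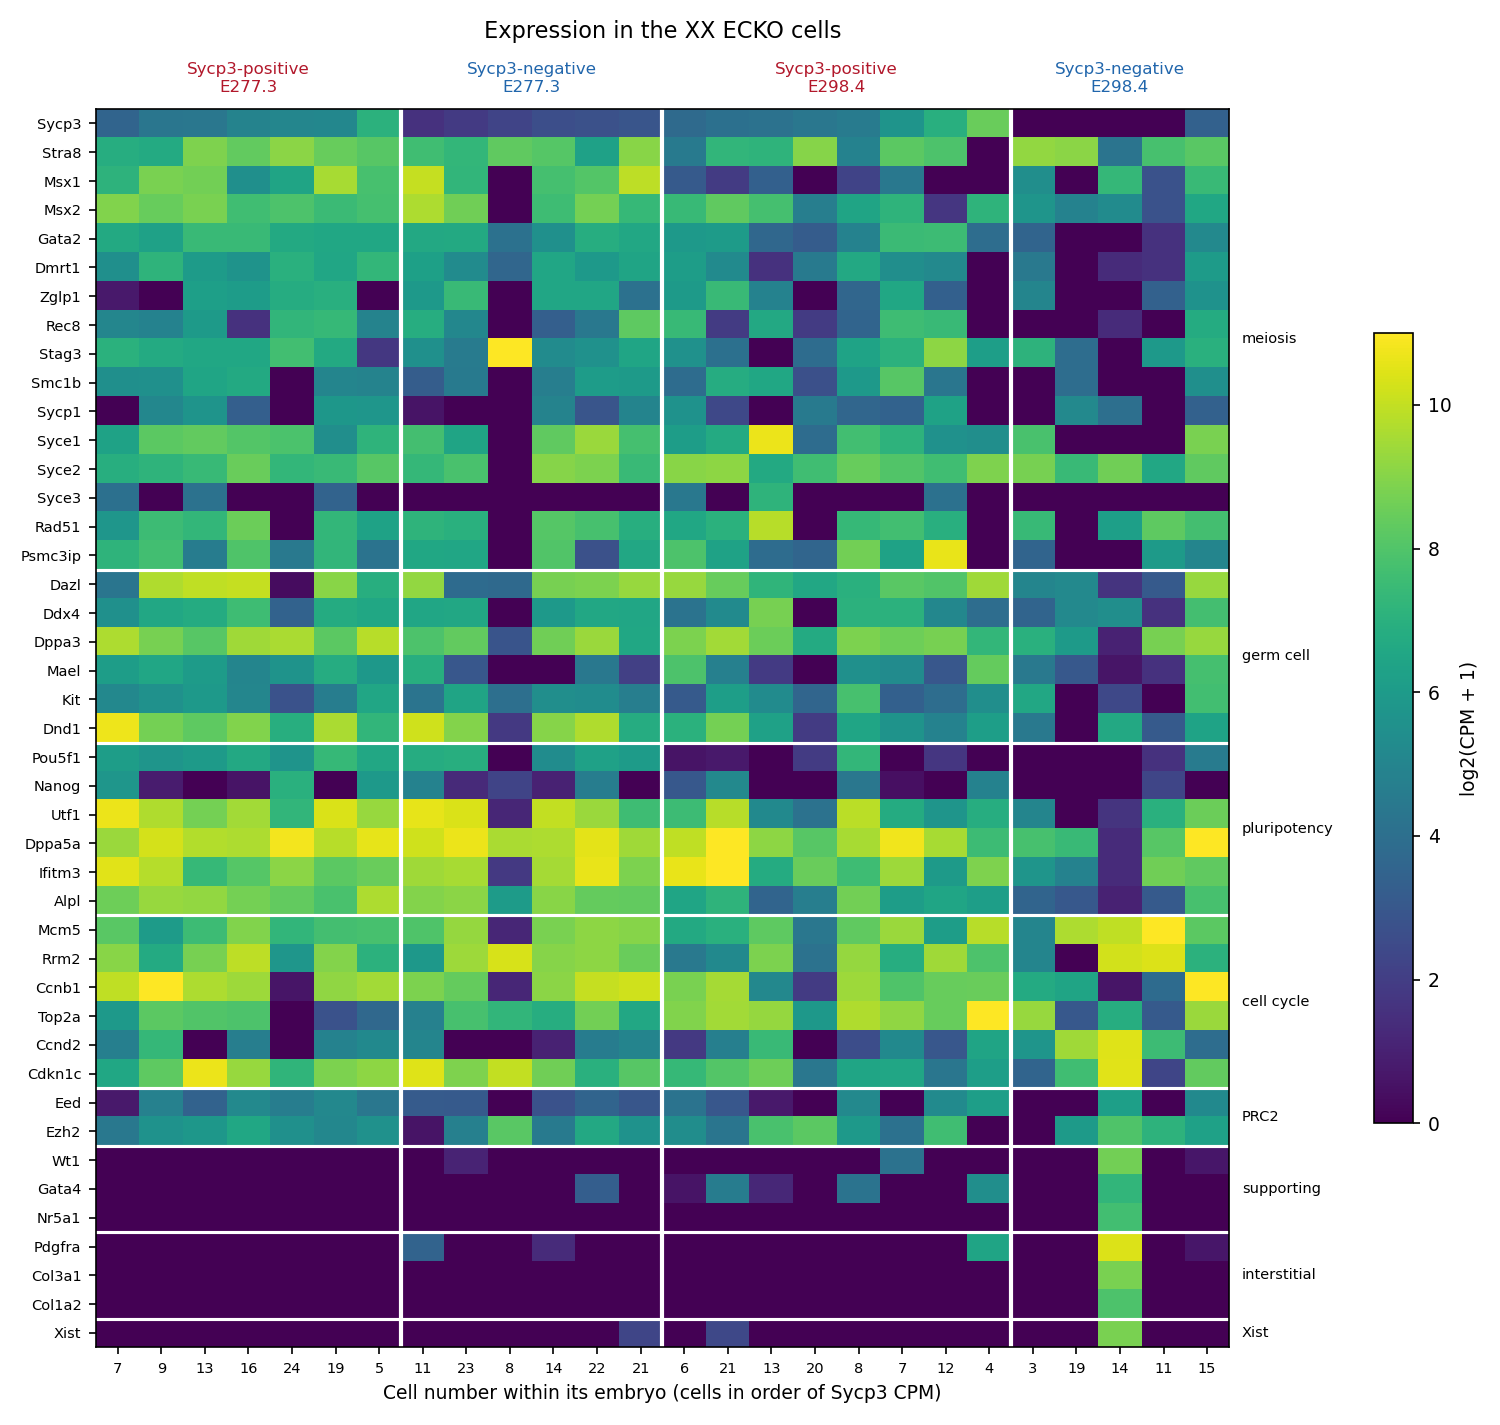
Colour gives log2(CPM + 1) of 43 genes (rows, grouped by list) in the 26 XX ECKO cells (columns, numbered within each embryo and ordered by Sycp3), Sycp3-positive cells left of Sycp3-negative cells for each embryo. Stra8 is bright in nearly all columns, cell 8 of E277.3 lacks most rows, and cell 14 of E298.4 is the brightest for Wt1, Nr5a1, Pdgfra, Col3a1, Col1a2 and Xist, with Pdgfra next at 85.5 CPM in cell 4 and Wt1 next at 17 CPM in cell 7, both Sycp3-positive cells of E298.4.

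Genes of pluripotency and early PGCs did not pass the test between the classes. Of 28 genes tested, 4 were higher (14.3%) and 5 lower (17.9%) in Sycp3-positive cells of both embryos, beside 26.4% and 20% of all genes. The other 19 had opposite signs, as did 6328 of all 11806 genes. Pou5f1 (Oct4), a core pluripotency factor whose reporter marked the sorted cells, was at 51, 67.8 and 162 CPM in Sycp3-positive and 0, 70.7 and 118 CPM in Sycp3-negative cells of E277.3. In E298.4 it reached 10 CPM in 1 of 8 Sycp3-positive cells, at 155.8 CPM, and in 1 of 5 Sycp3-negative cells, at 23 CPM, and those single cells held 99.1% and 97.6% of their group's Pou5f1 counts. Nanog, a second core factor, reached 10 CPM in 3 of 7 Sycp3-positive and 2 of 6 Sycp3-negative cells of E277.3 and in 3 of 8 and 0 of 5 of E298.4. Cell 24 held 81.6% of the Nanog counts of its group. Utf1, a chromatin-associated gene of pluripotent cells, had medians of 706 and 833 CPM in Sycp3-positive and Sycp3-negative cells of E277.3, and of 111 and 31.6 CPM in E298.4. The 31.6 CPM is the value of the shallow cell 3, where it stands for only 3 counts.

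Germ cell genes of later stages were read in both classes. Dazl, an RNA-binding protein gene needed for germ cells to enter meiosis, lay at 0.28, 523 and 1062 CPM in Sycp3-positive and at 12.6, 441 and 636 CPM in Sycp3-negative cells of E277.3. In E298.4 all 8 Sycp3-positive cells had 96.4 CPM or more, with a median of 272 CPM, while the Sycp3-negative cells had 2.12, 7.7, 31.6, 35.3 and 625.3 CPM. All of them but cell 15 thus lay below every Sycp3-positive cell, and cell 15 held 98.5% of the group's Dazl counts. In the summed counts the fitted difference was 0.32 (SE 0.50, p = 0.543, adjusted p = 1, edgeR), and it was -0.08 without cells 8 and 14. In E277.3 the Dazl ranges overlapped. Ddx4, an RNA helicase gene of the germline, had medians of 96.9 and 89.3 CPM in Sycp3-positive and Sycp3-negative cells of E277.3 and of 35 and 35.3 CPM in E298.4.

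Eed, the targeted gene, was still read in part of both classes. In E277.3 it lay at 0.706, 24.1 and 35.5 CPM in Sycp3-positive cells, where 5 of 7 reached 10 CPM. The Sycp3-negative cells lay at 0, 7.18 and 10.7 CPM, and 1 of 6 reached 10 CPM. In E298.4 it lay at 0, 12.2 and 71.2 CPM in Sycp3-positive cells (4 of 8 at 10 CPM or more), and the Sycp3-negative cells had 0, 0, 0, 36.2 and 73.2 CPM, the highest being cell 14. Control cells had medians of 47.2 and 46.3 CPM. The fitted class difference was 0.03 (SE 1.57, p = 0.985, adjusted p = 1, edgeR), with 1.28 in E277.3 and -1.33 in E298.4. Cell 14 held 68.7% of the Eed counts of the Sycp3-negative E298.4 cells, and without cells 8 and 14 the fitted difference was 0.47 (SE 1.64, p = 0.783, adjusted p = 1, edgeR). Counts per gene do not tell reads of a deleted allele from those of an intact one. Ezh2, the methyltransferase subunit, had medians of 46.6 and 37.2 CPM in Sycp3-positive and Sycp3-negative cells of E277.3, and of 50.3 and 77.7 CPM in E298.4.

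No cell cycle gene passed the adjusted test, and in E298.4 the median of the S phase genes changed sign when cell 14 was left out. Of 45 S, G2 and M phase genes, all tested, 11 were higher in Sycp3-positive cells of E277.3 and 19 in those of E298.4, with medians of -0.28 and -0.08. In both embryos 20 were lower (44.4%, beside 20% of all genes), 5 higher (11.1%, beside 26.4%) and 20 of opposite sign. Without cells 8 and 14, 21 of the 45 were lower in both (46.7%, beside 18.5% of all genes) and 6 higher (13.3%, beside 28.6%). The 23 S phase genes had a median of -0.17 in E298.4 with 7 higher, which became 0.51 with 14 higher without cells 8 and 14. Of them, 12 were lower in both embryos with all cells (52.2%) and 8 without cells 8 and 14 (34.8%). For the 22 G2 and M phase genes the E298.4 median was 0.09 with all cells and -0.45 without cells 8 and 14. Of these, 8 (36.4%) and 13 (59.1%) were lower in both embryos. All genes had shares of 20% with all cells and 18.5% without cells 8 and 14. With each cell thinned to 50000 counts, 9 of the 45 were higher (20%) and 16 lower (35.6%) in both embryos. Of all genes so thinned, 23.3% were higher and 18.2% lower in both. Mcm5, a subunit of the replicative helicase, lay at 65.6, 210 and 488 CPM in Sycp3-positive and at 1.26, 475 and 608 CPM in Sycp3-negative cells of E277.3. In E298.4 it lay at 19.3, 219 and 912 CPM in Sycp3-positive cells and at 31.6, 812 and 2094 CPM as lowest, median and highest in Sycp3-negative cells, and its difference was -1.13 in both embryos (p = 0.0632, adjusted p = 1, edgeR). Top2a, a topoisomerase gene of dividing cells, went opposite ways, with medians of 59.3 and 131 CPM in Sycp3-positive and Sycp3-negative cells of E277.3, and of 591 and 116 CPM in E298.4. The 116 CPM is the value of cell 14. Ccnd2, a G1 cyclin gene, reached 10 CPM in 5 of 7 Sycp3-positive and 3 of 6 Sycp3-negative cells of E277.3 and in 4 of 8 and 5 of 5 of E298.4. Cell 14 held 1409 CPM of it, 92.3% of its group's counts. No cell was assigned to a cycle phase.

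No gene passing the test, 10 higher and 10 lower genes with the same sign in both embryos are given as values that did not pass. Each had a mean of at least 20 CPM over the cells of its higher class in each embryo. At least 60% of those cells were at 10 CPM or more, so high shares in that class were set by this filter. Genes with Gm, Rik, LOC, Mir or Snor symbols were left out, and the rest were ranked by p on this comparison. The 10 higher ones had fitted log2 differences of 1.42 to 3.66 and unadjusted p of 0.0223 to 0.0499 (edgeR, adjusted p = 1). Map7d1, a microtubule-associated protein gene, was at 14.7, 48.7 and 128 CPM in Sycp3-positive and 0, 6.63 and 39.1 CPM in Sycp3-negative cells of E277.3. In E298.4 it reached 10 CPM in 6 of 8 Sycp3-positive cells (median 68.3 CPM) and in 1 of 5 Sycp3-negative cells, cell 15 at 58.1 CPM. Cldn6, a tight junction claudin gene, had medians of 199 and 86.5 CPM in Sycp3-positive and Sycp3-negative cells of E277.3, and reached 10 CPM in 6 of 8 and 0 of 5 cells of E298.4. Rhox2d, one of a cluster of X-linked homeobox genes whose near-identical copies can share reads, reached 10 CPM in 6 of 7 Sycp3-positive and 3 of 6 Sycp3-negative cells of E277.3. In E298.4 it did so in 5 of 8 Sycp3-positive and 0 of 5 Sycp3-negative cells. Among the Sycp3-positive ones is the shallow cell 4 at 14.25 CPM, below the 42.7 CPM that 3 counts make in it. Supt4a, a transcription elongation factor gene whose reads may be shared with a close copy, was at medians of 182 and 105 CPM in Sycp3-positive and Sycp3-negative cells of E277.3 and of 210 and 30.8 CPM in E298.4. The other 6 were Rpl10l, Cuedc2, Git1, Cox6b2, Krtcap3 and Uhrf1bp1. Without cells 8 and 14, 8 of the 10 stayed at an unadjusted p under 0.05 (edgeR), with log2 differences of 1.15 to 3.21 over the 10. Both left-out cells are Sycp3-negative, so the Sycp3-positive sums stayed as they were. Of the 10, 3 in E277.3 and 5 in E298.4 had most of their Sycp3-positive counts in 1 cell. In E277.3 these were Cuedc2 (67.5%), Rhox2d (63.8%) and Cldn6 (60.3%), all in cell 24. In E298.4 the highest share was 76.5%, of Cldn6 in cell 7.

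For the 10 lower genes, much of the Sycp3-negative sums came from cells 8 and 14. They had fitted differences of -1.6 to -2.81 and unadjusted p of 0.00395 to 0.025 (edgeR, adjusted p = 1). Cell 8 held the most counts of its class for 7 of the 10 in E277.3, and cell 14 for 9 of the 10 in E298.4. Malat1, a nuclear noncoding RNA, was at 5152 CPM in cell 8 and at 210 CPM or less in the other Sycp3-negative cells of E277.3. It was at 5455 CPM in cell 14, with 463 CPM or less in the other Sycp3-negative cells of E298.4. Without both cells its difference was 0.75, of the opposite sign to the -1.94 with them. Lars2, which encodes the mitochondrial leucyl-tRNA synthetase, was at 10110 CPM in cell 8, where the other E277.3 cells of the class had 169 CPM or less. H19 and Ndn, both imprinted genes, had 90.1% and 89.6% of their Sycp3-negative E298.4 counts in cell 14. Ctbp2, a transcriptional corepressor gene, had 96.4% there. Btrc, Clk1, Gjc1, Nisch and Odf2 made up the rest. Without the 2 cells, 2 of the 10, Gjc1 and Odf2, stayed at an unadjusted p under 0.05.

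**Figure D5:**
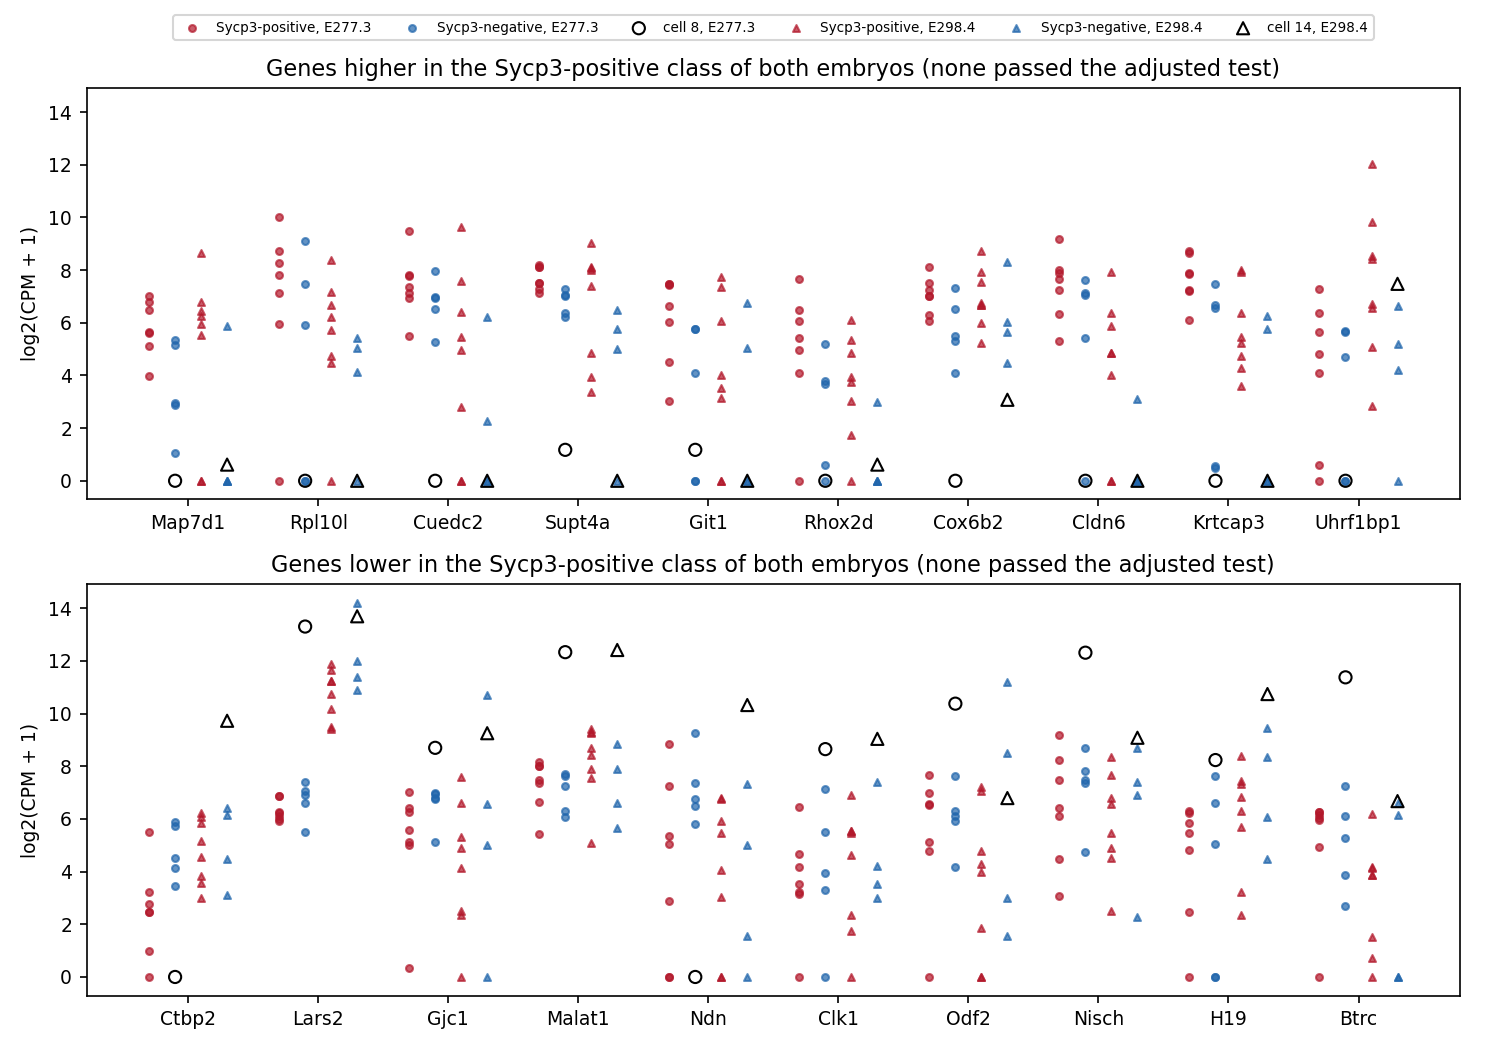
Log2(CPM + 1) in each XX ECKO cell (vertical axis) of the 10 genes higher (upper panel) and 10 lower (lower panel) in the Sycp3-positive class of both embryos, with Sycp3-positive cells in red left of Sycp3-negative cells in blue, circles for E277.3 and triangles for E298.4; open black symbols are cells 8 and 14. The open symbols top most Sycp3-negative columns of the lower panel, as for Malat1 at 5152 and 5455 CPM.

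Each ECKO class was also set against the same 2 Control sums, so the pair of comparisons share their Controls and are given side by side. No gene passed in either (edgeR, adjusted p under 0.05: 0 of 12039 for Sycp3-positive and 0 of 11602 for Sycp3-negative cells, 0% each). At an unadjusted p under 0.05, 781 genes were higher (6.49%) and 516 lower (4.29%) in Sycp3-positive cells, and 525 higher (4.53%) and 418 lower (3.6%) in Sycp3-negative cells. Without cells 8 and 14, no gene passed for Sycp3-negative cells either, with a smallest adjusted p of 0.521 (edgeR). DESeq2 called 444 higher (3.69%) and 215 lower (1.79%) for Sycp3-positive and 367 higher (3.16%) and 147 lower (1.27%) for Sycp3-negative cells. With 1 Control embryo left out, edgeR called 95 or 203 genes higher in Sycp3-positive cells, but the lone Control sum is then assumed to vary like the 2 ECKO sums, which alone give the spread. With 1 ECKO embryo left out it called none.

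Stra8 was above Control by 6.55 on the log2 scale in Sycp3-positive cells (SE 1.69, p = 0.00593, adjusted p = 0.296, edgeR) and by 6.36 in Sycp3-negative cells (SE 1.98, p = 0.0218, adjusted p = 0.559, edgeR). For Sycp3-positive cells this fitted value was 12.4 without E277.5 and 5.58 without E301.1, beside Control sums of 149 Stra8 counts in E277.5 and 1 in E301.1. Rec8 was above Control by 2.80 in Sycp3-positive (p = 0.0028, adjusted p = 0.27, edgeR) and by 2.39 in Sycp3-negative cells (p = 0.0321, adjusted p = 0.562, edgeR). Over the meiosis lists, 4 of 49 genes were higher and 1 lower at an unadjusted p under 0.05 (edgeR) in Sycp3-positive cells. In Sycp3-negative cells 4 of 48 were higher and 0 lower. Of all genes, 6.49% were higher and 4.29% lower in Sycp3-positive cells, and 4.53% higher and 3.6% lower in Sycp3-negative cells.

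Pluripotency genes had negative median differences from Control in both classes, and none passed the adjusted test. At an unadjusted p under 0.05 (edgeR), 11 of 28 were lower and 1 higher in Sycp3-positive cells, with a median of -1.25 over the list. In Sycp3-negative cells 8 of 29 were lower and 0 higher, with a median of -1.44. The Sycp3-negative sums include cells 8 and 14, where Pou5f1 was at 0 CPM and Utf1 at 1.26 and 2.12 CPM. The part of these 2 cells in the list median was not tested. All genes had medians of 0.07 and 0.03, and 4.29% and 3.6% of them were lower in the Sycp3-positive and Sycp3-negative cells. Pou5f1 differed from Control by -2.34 in Sycp3-positive (SE 0.51, p = 0.00241, adjusted p = 0.27, edgeR) and by -2.73 in Sycp3-negative cells (SE 1.06, p = 0.0477, adjusted p = 0.607, edgeR), beside Control medians of 190 and 315 CPM. Utf1 differed by -2.58 in Sycp3-positive and by -2.65 in Sycp3-negative cells, beside Control medians of 3293 and 2805 CPM. Ccnd2 was above Control by 5.01 in Sycp3-positive (p = 0.00481, adjusted p = 0.292, edgeR) and by 8.25 in Sycp3-negative cells (p = 0.00941, adjusted p = 0.559, edgeR), where cell 14 held 92.3% of the E298.4 counts. Of the dissociation stress genes, 6 of 18 were higher and 2 lower than Control in Sycp3-positive cells at an unadjusted p under 0.05, and 6 of 17 higher and 0 lower in Sycp3-negative cells, beside 6.49% and 4.53% of all genes higher. None passed the adjusted test, and their part in the other differences was not tested.

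In XY ECKO cells of the same stage, few cells of either class reached 10 CPM of Stra8. In embryo E281.3 it was 1 of 6 Sycp3-positive cells (highest 28.7 CPM) and 0 of 12 Sycp3-negative cells (highest 1.69 CPM). In embryo E296.1 it was 1 of 2 Sycp3-positive cells (highest 46.8 CPM) and 3 of 16 Sycp3-negative cells, whose highest value was 680.1 CPM.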

How the data were processed

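The values analysed are deposited counts, whole numbers per gene symbol for single cells of E12.5 XX embryos, with 24391 symbols. The tools HISAT2 and edgeR and the mm9 build are named per the submitters' processing notes. How genes were counted, by which annotation and with which strandedness, is not given in the sources used here, so overlapping, antisense or near-identical genes cannot be told apart. Cell columns were placed by sex, genotype and embryo from their headers; which embryo code is embryo 1 or 2 of the labels is not given, so codes are used. Embryos E277.3 and E277.5 share 277 in the headers, whose meaning is not given.

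From there, CPM is counts over a cell's total counts. Counts were summed per embryo and class (4380463 to 12625319 per ECKO sum, 27659802 and 28753681 per Control sum) and fitted in R 4.3.3 with edgeR 4.0.16 after a filterByExpr filter, using TMM factors and the quasi-likelihood test, adjusted over all genes tested at 0.05. The class comparison had the embryo as block and 1 residual degree of freedom; the Control comparisons had no block. DESeq2 1.42.0 was an alternative. Per-embryo log2 differences used a pseudocount of 2 CPM. A cell scored a gene as present at 10 CPM. Floors are 3 counts, and with intervals they cover counting error only, because PCR copies were not collapsed by molecular identifiers. In a cell whose floor lies above 10 CPM, a gene could score as present below that floor. In the class comparison the p-values rest on how far the class difference varied between the 2 embryos. In the Control comparisons they rest on the spread between embryos of the same group. Each spread was moderated by a prior shared over genes, of 3.33 to 5.27 degrees of freedom. Doublets were not called, since cells were sorted singly. The script was tested on simulated data with a set spread, which checks the code and not the power of the tests. With 2 embryos and 1 residual degree of freedom, the lack of called genes does not show that the classes are alike.

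Named genes were Sycp3, Stra8, Eed, Pou5f1, Nanog, Dazl, Ddx4 and Xist, up to 6 members of each list by mean CPM, and the 10 higher and 10 lower genes by p with the same sign in both embryos, 20 CPM or more on average and 10 CPM or more in at least 60% of cells of the higher class of each embryo. Genes with Gm, Rik, LOC, Mir or Snor symbols were left out of the ranking by p. Members, lists and tests were chosen with earlier results of these data known. Syce3 and the values of cells 8, 14, 15 and 24 were singled out after they were seen. Bulk tables were not used here. Of the meiosis lists, Meiosin matched no symbol. Promoters came from RefSeq tables and both genes matched.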

Additional observations from a re-analysis of the deposited data

Results flagged for a closer look

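Among 48 groups of cells of 1 class and embryo (12 measures, on log2(value + 1)), 12 had a cell whose gap to its nearest neighbour exceeded Dixon's 95% critical value; chance alone flags about 1 group in 20. Cell 8, Sycp3-negative in E277.3, was the lowest of its group in total counts (795849), in genes with a count (2667), in summed germ cell markers (355.6 CPM) and in Ddx4 (0 CPM). Cell 14, Sycp3-negative in E298.4, was the highest of its group in Xist (439.6 CPM) and the lowest in Stra8 (18.03 CPM). The other flags were at low levels. In E277.3, cell 7 of the Sycp3-positive cells had the lowest supporting cell marker sum (1.412 CPM) and the highest blood marker sum (17.65 CPM), and cell 21 of the Sycp3-negative cells the lowest endothelial marker sum (0.3991 CPM) and the highest Xist (3.991 CPM). In E298.4, cell 21 of the Sycp3-positive cells had the highest Xist (4.218 CPM), and cell 11 of the Sycp3-negative cells the highest blood marker sum (7.7 CPM).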

How the results depend on the processing

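Between Sycp3-positive and Sycp3-negative cells, the count of 0 called genes held under RLE factors, at 200000 counts and 4000 genes, without cell 24, with the Control sums in the fit and, among alternatives chosen after seeing the data, at 6000 genes, without cell 14, without cells 8 and 14, and without the shallow Sycp3-negative cells. Without the embryo block it was also 0. Thinning to 50000 counts gave 1 higher and 7 lower, DESeq2 32 and 62, no filter 0 and 2, and Sycp3 at 50 CPM or more 0 and 1. At any count of Sycp3 no fit was possible, E277.3 having no negative cell. Leaving out either embryo leaves values with no test. Signs turned with 50 CPM or more for Eed (-0.82), Pou5f1 (-2.9), Nanog (-1.01), Dazl (-0.88), Rpl10l (-4.22), Git1 (-0.0341), Uhrf1bp1 (-2.93), Ctbp2 (0.12) and Odf2 (0.504), where E277.3 had 1 positive cell. They also turned for Stra8 when thinned (-0.48), without cell 24 (-0.0133), without cell 14 (-0.2) and without cells 8 and 14 (-0.17). Eed turned at 4000 genes (-0.0323), at 6000 genes (-0.13), with RLE (-0.0157), with DESeq2 (-0.0151) and without the block (-0.46). Dazl turned without cell 14 (-0.0492) and without cells 8 and 14 (-0.0795), as did Ddx4 (-0.0239) and Malat1 (0.75) without cells 8 and 14. Of 335 values for 26 genes, 308 kept sign and call, 22 turned sign and 5 gained a call.

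Against Control, Sycp3-negative cells gave 1126 higher and 1692 lower at any count of Sycp3 (1 ECKO sum only, assumed to vary like the Controls), where Rec8 turned to -3.38, and 367 and 147 with DESeq2. Sycp3-positive cells gave 310 and 135 with no filter, 444 and 215 with DESeq2, 1 higher when thinned, and 0 to 203 higher and 0 to 27 lower when 1 embryo was left out. With the embryo order as a replicate block they gave 13 higher and 1 lower, and Sycp3-negative cells 0; same-numbered sums deviated together by a correlation of only 0.069 and 0.0255, and what the number that E277.3 and E277.5 share stands for is not given, so the order is not taken as a pairing. The cause of these changes was not tested. Shares rest on 5 to 8 cells per group.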
